A study of Mus musculus with 12 samples.

Results

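The Xbp1-deficient libraries, 6 of the 12 in the series, were compared across the step from granulocyte-macrophage progenitors (GMP) to GATA2-GMP. They were chosen by label alone, as all libraries of Xbp1-deficient (KO) C57BL/6 mice: 3 of GMP (GMP KO 1 to 3) and 3 of GATA2-GMP (GATA2-GMP KO 1 to 3). GMP are bone marrow progenitors of granulocytes and monocytes, and their RNA was taken straight after sorting for TruSeq library preparation. GATA2-GMP were GMP that received GATA2 by transduction, were sorted again and then grown for 48 hours, and their RNA went through SMARTer Ultra Low Input amplification ahead of the TruSeq steps. The 6 libraries of wild-type (WT) C57BL/6 mice at the same stages served as a reference and share no library with the KO comparison. Stage, transduction, culture and kit change together at this step and cannot be told apart. Which Xbp1 allele was used, in which cells it is lost, the species and vector of the introduced GATA2 and the animals behind the replicate numbers are not given in the sources used here. The p-values therefore measure the spread between these libraries, which may be technical.

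As background, XBP1 is the transcription factor of the IRE1 arm of the unfolded protein response, which raises the folding and secretion capacity of the endoplasmic reticulum (ER) when client proteins accumulate. The sensor IRE1 (gene Ern1) splices Xbp1 mRNA, ATF6 is a second sensor that becomes a transcription factor after cleavage in the Golgi, and PERK (gene Eif2ak3) acts through translation and the transcription factors ATF4 and CHOP. Eosinophils carry large amounts of basic granule proteins made in the ER, and their lineage depends on GATA factors and IL-5. XBP1 is known to be needed for eosinophil differentiation, so the comparison asks which parts of the programme induced with GATA2 still appear in Xbp1-deficient cells.

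The authors' tables are raw read counts per gene. KO libraries held 8219366 to 33640911 counts in GMP and 17828854 to 19681861 in GATA2-GMP. Levels are in counts per 1000000 reads (CPM), with library sizes scaled over all 12 libraries by the TMM method. Mpo, the neutrophil peroxidase, took 2.10 to 2.41% of counts in GMP KO, while 4.10 to 5.12% in GATA2-GMP KO fell to Prg2, which encodes the eosinophil major basic protein. The median standard deviation (SD) of a gene over the 3 libraries of a group was 0.0979 on the log2 scale in GMP KO and 0.267 in GATA2-GMP KO. Within GMP KO, library 1 stood apart with higher levels of granule genes, and its values are given beside the results they touch.

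Of 12438 genes tested, 78.6% changed between GMP KO and GATA2-GMP KO at an adjusted p below 0.05. They comprised 4801 genes that rose (38.6%) and 4976 that fell (40.0%), and 3613 and 3794 of these passed 2-fold (29.0 and 30.5%). A gene almost without reads in a single group passed the filter on low counts through the other group and could only be called toward it. Groups of libraries did not overlap in 82.4% of genes tested. A list of genes is therefore read against a background in which most genes moved: the median log2 fold change of all genes tested was -0.05. The same comparison in WT called 70.5% of 12251 genes, 34.1% higher and 36.4% lower. With library sizes taken as total counts, log2 fold changes shifted by a median of -0.674 and the share of calls that were higher went from 49.1 to 32.9%, so genes and lists with small rises depend on the scaling.

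Xbp1 itself (chr11:5420662-5425896, plus strand, mm9) had 89.79, 55.92 and 56.80 CPM in GMP KO 1 to 3 and 99.87, 121.5 and 127.8 CPM in GATA2-GMP KO 1 to 3. All GATA2-GMP KO libraries lay above all GMP KO libraries. The log2 fold change, 0.79 (SE 0.21), had an adjusted p of 0.00647, and was 0.11 (adjusted p = 0.615) with total counts as library sizes. In WT, Xbp1 averaged 139.3 CPM in GMP and 282.5 CPM in GATA2-GMP, which is 1.03 on the log2 scale (adjusted p = 0.00602). Counts cover the whole gene, so they do not show how much intact or spliced Xbp1 mRNA was present.

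Gata2 (chr6:88143885-88157024, plus strand, mm9) had 24.8, 28.27 and 29.12 CPM in GMP KO and 273.3, 235.1 and 293.0 CPM in GATA2-GMP KO. It rose by a log2 fold of 3.30 (SE 0.16, adjusted p = 2.97e-07), beside 3.35 in WT. Reads of the introduced GATA2 and of the cell's own gene cannot be told apart in these counts.

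Eosinophil granule genes rose strongly in the Xbp1-deficient libraries. Major basic protein (Prg2), its homologue Prg3 and eosinophil peroxidase (Epx) all passed the test, with a median log2 fold change of 7.33. Prg2 (chr2:84820618-84823789, plus strand, mm9) had 461.8, 247.1 and 220.0 CPM in GMP KO 1 to 3 and 49530, 60220 and 54940 CPM in GATA2-GMP KO 1 to 3. The change of Prg2 was 7.48 (SE 0.40, adjusted p = 6.39e-07), and 7.87 without GMP KO 1. Prg3, its neighbour at chr2:84828353-84834043, went from 21.15, 13.51 and 9.86 CPM to 2188, 2591 and 2392 CPM, a change of 7.33 (SE 0.33, adjusted p = 2.95e-07). Epx (chr11:87677502-87689038, minus strand, mm9) went from 121.0, 58.31 and 62.62 CPM to 3977, 4901 and 2282 CPM, a change of 5.53 (SE 0.42, adjusted p = 4.09e-06). In all 3 genes every GATA2-GMP KO library lay far above every GMP KO library, and GMP KO 1 was the highest of its group.

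Each of these rises was larger in WT, by fitted values. Prg2 reached a mean of 142300 CPM in GATA2-GMP WT from 105.9 CPM in GMP WT, and the WT change was 10.40 (SE 0.87, adjusted p = 2.98e-05). The difference between genotypes in the stage change was -2.92 for Prg2 (adjusted p = 0.0960), -2.49 for Prg3 (adjusted p = 0.0961) and -3.99 for Epx (adjusted p = 0.0609), and none passed 0.05 in the fit of all 12 libraries. All 3 passed without GATA2-GMP WT 3 (adjusted p = 0.0243, 0.0209 and 0.0106) and with DESeq2. Those settings called 1179 of 13059 and 794 of 12803 genes, against 11 in the main fit. Over all settings the adjusted p of Prg2 ran from 0.000843 to 1 and that of Epx from 5.32e-06 to 0.541. Such ranges include glmTreat, which tests against a fold of 2 rather than against no change. Their upper ends can reflect that stricter question. In GMP, the summed level of the 3 genes was 292.5 to 604.0 CPM in KO and 46.73 to 237.4 CPM in WT. In GATA2-GMP it was 55690 to 67710 CPM in KO and 134400 to 204300 CPM in WT, so the genotypes did not overlap at either stage, with KO higher in GMP and lower in GATA2-GMP. Overlap between genotypes was not counted over all genes. In bulk RNA, fewer cells of a type and less RNA per cell cannot be told apart.

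**Figure D1:**
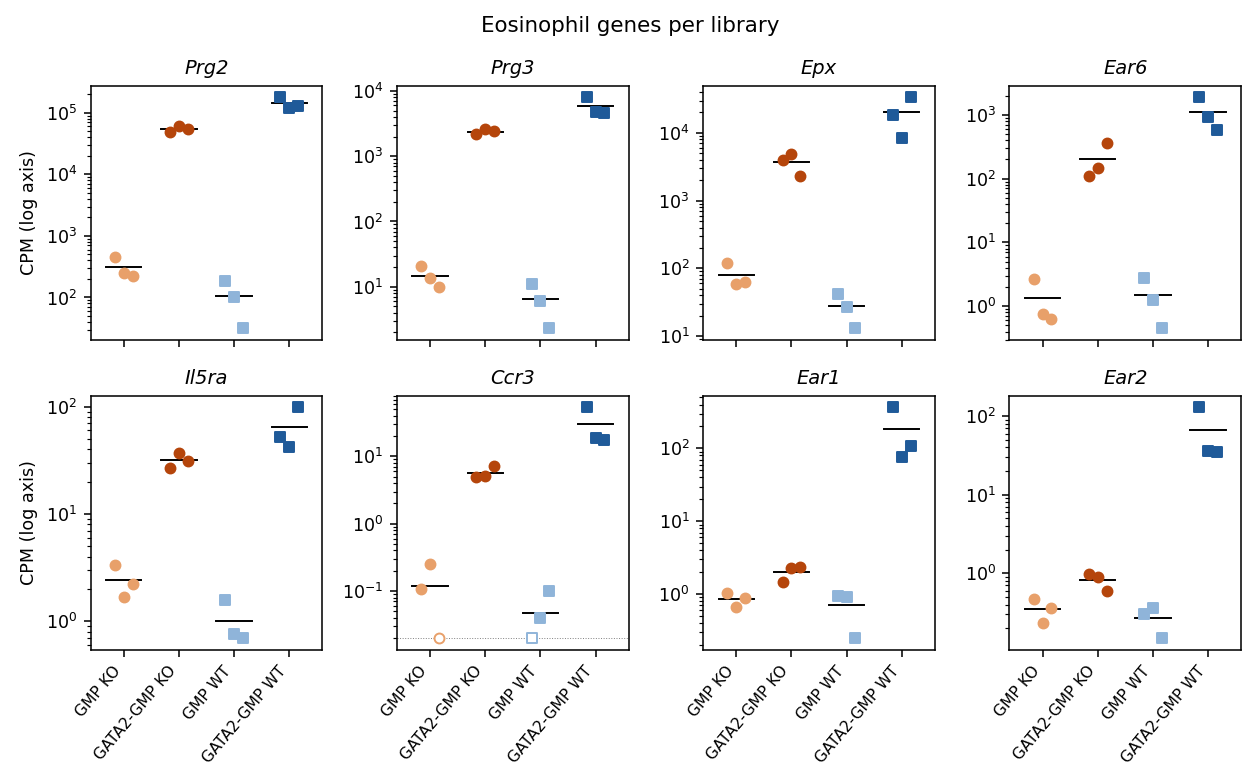
Levels of 8 eosinophil genes in each library, in CPM on a log axis that differs between panels; circles are KO, squares are WT, the black line is the mean of 3 libraries, and open symbols on the dotted line are libraries at 0. Prg2, Prg3, Epx, Ear6, Il5ra and Ccr3 rise in both genotypes, while Ear1 and Ear2 stay below 2.5 CPM in KO and reach 35.09 CPM or more in every GATA2-GMP WT library.

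The eosinophil-associated RNases are secreted granule enzymes encoded by a cluster of near-identical genes, and reads with more than 1 alignment were not counted, so their levels are uncertain. Of 11 members found, 3 passed the filter on low counts and all 3 were called higher. Ear6 (chr14:52473374-52474318, plus strand, mm9) went from 2.68, 0.76 and 0.63 CPM to 111.7, 148.5 and 356.6 CPM in KO, a change of 7.18 (SE 0.67, adjusted p = 1.27e-05). Ear1 (chr14:44396430-44397304, minus strand) went only from 1.04, 0.67 and 0.90 CPM to 1.46, 2.3 and 2.33 CPM in KO, while it averaged 185.0 CPM in GATA2-GMP WT. Ear2 (chr14:44680319-44681199, plus strand) went from 0.46, 0.23 and 0.36 CPM to 0.99, 0.90 and 0.60 CPM in KO and averaged 67.0 CPM in GATA2-GMP WT. The stage change was smaller in KO than in WT by 6.75 for Ear1 (adjusted p = 0.0277) and 6.58 for Ear2 (adjusted p = 0.0321), among the 11 of 12803 genes (0.0859%) whose stage change differed between genotypes. Neither difference passed with the GMP libraries paired by replicate number (adjusted p = 0.0814 and 0.102). Their own rises in KO, 1.25 (adjusted p = 0.0113) and 1.30 (adjusted p = 0.0257), did not pass with total counts, in the fit of all 12 libraries or without GMP KO 2. The rise of Ear2 passed in only 5 of 16 settings, and also failed with DESeq2 (adjusted p = 0.0502), with the replicate block, without the low-count filter and without GMP KO 3, GATA2-GMP KO 1 or GATA2-GMP KO 2. They were -0.94 and -0.82 after an offset for GC content and length.

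Receptors and enzymes of eosinophils followed the granule genes. Of 23 members found 20 were tested, of which 16 rose and 3 fell, with a median of 5.13. Hrh4 and C3ar1, without reads in GMP KO, passed the filter through GATA2-GMP KO alone and could only be called higher. Il5ra, the receptor chain specific to IL-5, had 3.36, 1.70 and 2.24 CPM in GMP KO and 26.78, 36.99 and 31.32 CPM in GATA2-GMP KO. Il5ra had a KO change of 3.72 (SE 0.28, adjusted p = 3.55e-06), beside 5.98 in WT (difference -2.27, adjusted p = 0.0960). Ccr3, the eotaxin receptor, went from 0.11, 0.25 and 0 CPM to 5.02, 5.06 and 7.14 CPM, a change of 5.13 (SE 0.52, adjusted p = 2.01e-05), and averaged 30.11 CPM in GATA2-GMP WT. All GATA2-GMP KO libraries lay above all GMP KO libraries in both genes.

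The signalling partner shared by the IL-3, IL-5 and GM-CSF receptors, Csf2rb, went from 115.6 to 131.3 CPM in GMP KO to 1860 to 2721 CPM in GATA2-GMP KO, a change of 4.27 (SE 0.21), close in size to the 4.13 of WT. Its IL-3-specific relative Csf2rb2 rose by 6.75 and the IL-33 receptor Il1rl1 by 6.18. Alox15, a lipoxygenase of eosinophils, went from 0.18, 0.16 and 0.36 CPM to 548.2, 571.0 and 440.1 CPM, a change of 11.33 (SE 0.29, adjusted p = 8.64e-08). Alox5 and its activating protein Alox5ap, which start leukotriene synthesis, rose by 7.95 and 3.55. Il3ra, the alpha chain of the IL-3 receptor, fell by 5.20, with changes of -5.89 to -2.69 over all settings. Siglec5, the older symbol of Siglec-F, an inhibitory lectin that marks mouse eosinophils, had 32.26, 22.98 and 21.41 CPM in GMP KO and 22.23, 25.86 and 33.95 CPM in GATA2-GMP KO, groups that overlapped. Its KO change was 0.10 (adjusted p = 0.678) beside a rise of 1.78 in WT (difference -1.68, adjusted p = 0.0961). The sign of this small KO change turned with the scaling, at -0.59 (adjusted p = 0.0183) with total counts.

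Promoters of members that moved together are shown because GATA factors bind the letters AGATAA or TGATAA, forms that differ in the first letter only. The 250 bases before the start site were read from RefSeq promoters (GRCm38.p6) and searched on both strands. Capitals mark a match on either strand. The lines below give a granule gene with a match, a granule gene without one, both eosinophil receptors named above and, for the mast cell and basophil programme described further on, Cpa3 and Prss34.
Prg3: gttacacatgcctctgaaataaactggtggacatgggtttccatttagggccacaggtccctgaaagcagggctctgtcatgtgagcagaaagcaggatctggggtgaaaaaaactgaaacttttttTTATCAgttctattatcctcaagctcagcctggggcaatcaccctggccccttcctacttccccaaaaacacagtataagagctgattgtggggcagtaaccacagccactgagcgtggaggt
Epx: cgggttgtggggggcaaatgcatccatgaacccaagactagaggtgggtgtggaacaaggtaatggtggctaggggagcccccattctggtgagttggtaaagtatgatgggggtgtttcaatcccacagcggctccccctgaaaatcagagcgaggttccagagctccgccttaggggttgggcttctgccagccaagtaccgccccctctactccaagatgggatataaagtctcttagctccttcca
Il5ra: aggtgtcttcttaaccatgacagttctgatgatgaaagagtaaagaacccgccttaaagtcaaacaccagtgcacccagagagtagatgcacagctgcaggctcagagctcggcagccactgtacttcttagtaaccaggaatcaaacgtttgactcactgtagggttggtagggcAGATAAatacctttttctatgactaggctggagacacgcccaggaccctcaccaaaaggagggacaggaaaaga
Ccr3: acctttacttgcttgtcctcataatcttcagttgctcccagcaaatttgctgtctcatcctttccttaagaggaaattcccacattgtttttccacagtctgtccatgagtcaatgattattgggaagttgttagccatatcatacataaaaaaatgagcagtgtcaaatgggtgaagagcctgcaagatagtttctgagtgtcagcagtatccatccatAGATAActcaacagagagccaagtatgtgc
Cpa3: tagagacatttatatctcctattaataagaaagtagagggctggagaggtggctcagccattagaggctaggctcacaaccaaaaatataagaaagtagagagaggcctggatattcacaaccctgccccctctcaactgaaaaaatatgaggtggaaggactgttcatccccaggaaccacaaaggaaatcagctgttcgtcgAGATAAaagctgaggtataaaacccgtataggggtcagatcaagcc
Prss34: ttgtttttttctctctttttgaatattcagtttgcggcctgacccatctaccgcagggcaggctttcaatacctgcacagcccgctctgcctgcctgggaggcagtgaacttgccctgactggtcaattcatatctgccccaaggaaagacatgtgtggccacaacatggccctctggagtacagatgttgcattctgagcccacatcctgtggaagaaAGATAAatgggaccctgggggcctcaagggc

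These windows lie at chr2:84987965-84988214, plus strand (Prg3), chr11:87875537-87875786, minus strand (Epx), chr6:106749038-106749287, minus strand (Il5ra), chr9:124021721-124021970, plus strand (Ccr3), chr3:20242182-20242431, minus strand (Cpa3) and chr17:25298144-25298393, plus strand (Prss34). The match began 30 bases before the start site in Ccr3, 31 in Prss34, 46 in Cpa3, 74 in Il5ra and 123 in Prg3, where it lies on the opposite strand. A match stood in 7 of the 14 eosinophil receptor and enzyme promoters in the table and in 8 of the 17 of the mast cell and basophil list. Of the latter list, Mcpt8, Cyp11a1, Hdc, Gzmb and Il4 had no match, unlike Cpa3 and Prss34 shown above. A match also stood in 6 of the 22 later neutrophil granule promoters, 1 of the 2 of eosinophil granule genes and 0 of the 27 of ER chaperones. It stood in 18.8% of all 27025 promoters, in 11.7% of the promoters of genes tested, in 14.1% of those of genes that rose over 2-fold and in 10.5% of those that fell over 2-fold. These are counts of letters in a window and do not show binding.

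Transcription factors of the lineages moved in both directions. Of 29 tested, 14 rose and 13 fell, with a median of -0.69 (14 and 9 with a median of 1.07 after the GC and length offset). Among all genes tested, 38.6% rose and 40.0% fell. Gata1, the factor that drives eosinophil, mast cell and erythroid genes, went from 2.36, 1.56 and 1.70 CPM in GMP KO to 111.2, 139.7 and 101.5 CPM in GATA2-GMP KO. Gata1 changed by 5.97 (SE 0.23, adjusted p = 1.87e-07), beside 6.62 in WT. Gfi1b, a repressor of the same lineages, rose by 6.10. The inhibitors of basic helix-loop-helix factors Id1 and Id2 rose by 3.96 and 8.48, and Id2 reached 868.1, 875.8 and 1602 CPM. Cebpe, needed for late granulocyte maturation, rose by 1.25 (SE 0.26, adjusted p = 0.00164), beside 2.06 in WT. The ETS factor Fli1 rose by 2.63.

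Factors of the progenitor state and of monocytes fell. Cebpa, which sets up the GMP, went from 194.4, 202.3 and 175.9 CPM to 8.28, 7.36 and 5.03 CPM in KO, a change of -4.77 (SE 0.21, adjusted p = 2.53e-07). Over all settings the change of Cebpa ran from -5.44 to -1.96. Irf8, a factor of monocytes and dendritic cells, went from 273.3, 406.9 and 374.5 CPM to 0.35, 0.26 and 0 CPM, a change of -10.62 (SE 0.42, adjusted p = 1.98e-07). PU.1 (gene Sfpi1) fell by 2.79, Gfi1 fell by 2.82 and Myb fell by 1.67. The groups did not overlap for any of these genes. In WT the same genes had log2 fold changes of -4.57 (Cebpa), -10.48 (Irf8), -2.13 (Sfpi1), -2.57 (Gfi1) and -1.25 (Myb).

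The GMP label was checked against its markers. Mpo had 18840, 16230 and 16160 CPM in GMP KO, and Elane, Prtn3 and Ctsg, the serine proteases of primary granules, had 1326 to 2387 CPM. In GATA2-GMP KO, Mpo had 1578, 1969 and 1364 CPM, a change of -3.37 (SE 0.23, adjusted p = 1.70e-06), and the proteases fell by 3.06 (Elane), 3.65 (Prtn3) and 3.24 (Ctsg). Of the 14 tested members of the primary granule list 7 rose and 5 fell, beside 38.6 and 40.0% of all genes tested. The median of the list was 0.53, and it was -0.91 after the GC and length offset and -0.16 with total counts. Ms4a3, a GMP marker, went from 966.8, 789.2 and 686.2 CPM to 1046, 1414 and 1693 CPM, a change of 0.77 (adjusted p = 0.00932) that was 0.08 with total counts, -0.70 after the offset and 0.65 (adjusted p = 0.0530) without GMP KO 3.

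Genes of the later neutrophil granules rose beside those of eosinophils. All 23 members were tested, of which 21 rose and 2 fell, with a median of 7.29. Ngp, the neutrophilic granule protein, had 17.51, 2.99 and 1.97 CPM in GMP KO 1 to 3 and 21160, 21310 and 32180 CPM in GATA2-GMP KO 1 to 3. The change of Ngp was 11.67 (SE 0.998, adjusted p = 7.91e-06), and 13.22 without GMP KO 1. Camp, an antimicrobial peptide, had 8.18, 1.13 and 0.81 CPM in GMP KO and 512.8, 430.4 and 714.8 CPM in GATA2-GMP KO, a change of 7.29 that was 9.06 without GMP KO 1. Lactoferrin (Ltf) rose by 9.29 (11.05 without GMP KO 1), lipocalin 2 (Lcn2) by 7.20, and the calprotectin subunits S100a8 and S100a9 by 8.10 and 8.82 (8.63 and 10.18 without GMP KO 1). GMP KO 1 was the highest of its group for each of these 6 genes. GATA2-GMP KO 3, with 14970 CPM of S100a8 against 6906 and 6419, was the highest of its group for Ngp, Camp, Lcn2, S100a8 and S100a9. The summed level of the list was 505.3 to 709.6 CPM in GMP KO and 46160 to 77520 CPM in GATA2-GMP KO, beside 60040 to 91980 CPM in GATA2-GMP WT. The part of neutrophil-like cells in the stage change was not tested.

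Mast cell and basophil genes formed another rising group. Of 23 members found 20 were tested, of which 19 rose and 1, Kit, fell, and the median was 6.55 (6.25 with genes at 0 set to their bound). Mcpt2, Tpsab1, Tpsb2, Cma1 and Il13 had at most 1 count over GMP KO. They passed the filter through GATA2-GMP KO alone and could only be called higher. Carboxypeptidase A3 (Cpa3) went from 42.55, 58.89 and 44.35 CPM to 5215, 4753 and 9819 CPM, a change of 7.09 (SE 0.38, adjusted p = 6.62e-07), beside 6.30 in WT. The basophil proteases Mcpt8 and Prss34 rose by 5.06 and 5.70, and the chains of the high-affinity IgE receptor Fcer1a and Ms4a2 by 5.39 and 3.05. Cyp11a1, the enzyme that starts steroid synthesis, went from 2.14, 2 and 1.7 CPM to 2247, 3378 and 2664 CPM, a change of 10.45. Hdc, which makes histamine, rose by 2.39, granzyme B (Gzmb) by 6.94 and Il4 by 9.20. Gzmb was highest in library 3 of GATA2-GMP KO (86.51, 42.82 and 226.9 CPM), and its change was 6.08 without that library. The summed level of the list was 676.7 to 777.3 CPM in GMP KO and 12280 to 18300 CPM in GATA2-GMP KO, beside 7626 to 19000 CPM in GATA2-GMP WT. Both the eosinophil and the mast cell and basophil lists hold genes shared by those lineages, and the part of each cell type was not tested.

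Monocyte, macrophage and dendritic genes split. Of 21 tested, 14 rose and 5 fell, with a median of 1.79 (11 and 6 with a median of 1.08 with total counts, and a median of 0.81 after the offset). The fallen members included Csf1r, the M-CSF receptor, which went from 128.6, 199.6 and 167.8 CPM to 20.48, 10.56 and 21.26 CPM (change -3.24), Mpeg1 (-4.98), Ly86 (-7.25) and the transglutaminase chain F13a1. F13a1 had 534.9, 816.5 and 676.6 CPM in GMP KO and 1.05, 0.064 and 0.68 CPM in GATA2-GMP KO, a change of -10.10 (SE 0.50). Galectin 3 (Lgals3) rose by 6.56, F4/80 (Emr1), which eosinophils also carry, by 5.90, the monocyte surface protein Ly6c2 by 2.09 (0.27, adjusted p = 0.166, after the offset) and lysozyme (Lyz2) by 2.27. The chemokine receptor Ccr2 had 106.8, 138.6 and 118.6 CPM in GMP KO and 214.9, 191.9 and 199.6 CPM in GATA2-GMP KO, a change of 0.74 (adjusted p = 0.00108) that was 0.07 with total counts. Of 8 MHC class II genes tested, 5 rose and 2 fell, beside 38.6 and 40.0% of all genes tested. Cd74, the invariant chain, went from 0.21, 0.30 and 0.09 CPM to 129.9, 128.8 and 158.0 CPM, a change of 9.17, and averaged 43.9 CPM in GATA2-GMP WT (difference 1.13, adjusted p = 0.642). H2-Aa, a class II alpha chain, rose by 4.77.

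Few markers of other lineages were measurable. Only 6 of 21 erythroid and megakaryocyte genes passed the filter, of which 5 rose and none fell (1 rose with total counts, 2 without GMP KO 1 or without GMP KO 2, and 3 without GATA2-GMP KO 1). Hba-a1, an alpha globin with a near-identical copy, had no counted read in any library. Of 7 of 18 lymphoid genes tested, 3 rose and 2 fell. Il7r, the IL-7 receptor, had 1 count over the GMP KO libraries and 1130 over GATA2-GMP KO, a ratio of 2027 (95% counting interval 363.1 to 80130). Cd79a and Dntt, of B cells and of lymphoid precursors, stayed at or below 0.53 CPM in each KO library. Of the 5 sex-linked genes found, 4 were tested, of which 3 rose and 1 fell.

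Genes of stem and progenitor cells fell on balance: of 20 tested, 3 rose and 15 fell, with a median of -2.09. Cd34 went from 289.7, 394.3 and 333.3 CPM to 13.59, 11.07 and 12.32 CPM, a change of -4.77 (SE 0.19, adjusted p = 1.81e-07). Flt3 fell by 5.34, Hoxa9 by 5.02 and Myc by 0.49 (adjusted p = 0.0122, and 0.0600 without GMP KO 3). Kit, the receptor for stem cell factor, had 408.6, 370.1 and 366.5 CPM in GMP KO and 200, 195.5 and 113.3 CPM in GATA2-GMP KO, a change of -1.16 (SE 0.22). In GATA2-GMP WT, Kit had 31.33, 28.56 and 100.3 CPM (WT change -2.78, difference 1.62, adjusted p = 0.189). Without GATA2-GMP WT 3 the difference in Kit was 2.46 (adjusted p = 0.00292), and over all settings, with glmTreat among them, its adjusted p reached 1. The low-affinity Fc receptor gene Fcgr3, a sorting marker of GMP, rose by 3.12.

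**Figure D2:**
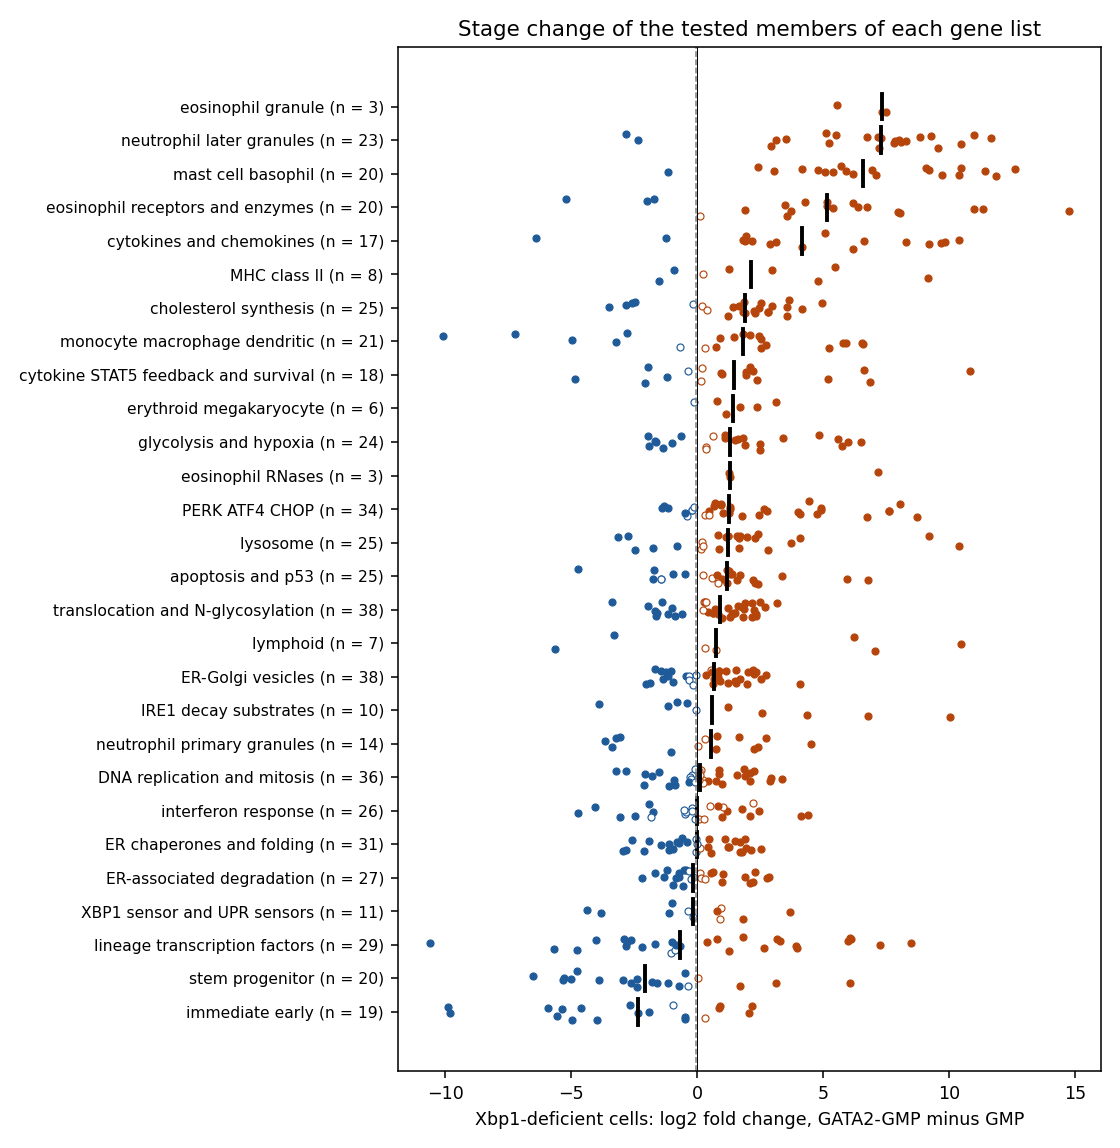
Log2 fold change, GATA2-GMP KO minus GMP KO, of each tested member (point) of 28 gene lists, ordered by median (black bar); filled points passed an adjusted p of 0.05, open points did not, orange is above 0 and blue below, and n is the number tested. The eosinophil granule, later neutrophil granule, mast cell and basophil, and eosinophil receptor and enzyme lists have medians of 7.33, 7.29, 6.55 and 5.13, the primary granule list one of 0.53, while stem and immediate early genes have medians of -2.09 and -2.36; members without reads in GMP KO (Hrh4, C3ar1, Mcpt2, Tpsab1, Tpsb2, Il2ra, Csf2 and Pmp22) are drawn at fitted values, and the dashed line is the median of all genes tested.

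Immediate early genes, which cells switch on within minutes of stimulation, were high in GMP and low in GATA2-GMP: 13 of 19 fell and 4 rose. Jun had 1203, 621.0 and 877.7 CPM in GMP KO and 0.93, 0.90 and 1.20 CPM in GATA2-GMP KO, a change of -9.80 (SE 0.36). Fos fell by 5.38 and Junb fell by 5.93. Fosb was, with Irf8 and F13a1, among the 12 called genes with the lowest values, at -9.88. The inducible heat shock genes Hspa1a and Hspa1b, near-identical copies whose shared reads were not counted, were also among them. Hspa1b had 575.0, 95.87 and 214.6 CPM in GMP KO and at most 0.23 CPM in any GATA2-GMP KO library, a change of -11.33 (SE 1.01). Hspa1a had 16025 counts over GMP KO and 2 over GATA2-GMP KO, a ratio of 4467 (95% counting interval 1236 to 36890). In WT, Hspa1b also had 721.7, 145.0 and 424.3 CPM in GMP, and the library of replicate 2 was the lowest in both genotypes.

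Among genes without a list, the largest falls were those of Nrg2, Kcnip3, Nwd1, Kcnk12, Apba1 and Tie1. The growth factor Nrg2 had 34.44, 34.87 and 30.46 CPM in GMP KO and no reads in GATA2-GMP KO, at least 524.2-fold lower when the group is set to a floor of 3 counts. Kcnip3, a calcium-binding regulator of potassium channels, had 2 counts over GATA2-GMP KO, and its ratio was 925.4 (95% counting interval 256.0 to 7645). Nwd1 and the potassium channel Kcnk12 had 3 and 2 counts over GATA2-GMP KO, with ratios of 532.6 (182.1 to 2584) and 503.1 (139.1 to 4158). Apba1 fell by 8.69 and the receptor kinase Tie1 by 8.35.

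The largest rises were of genes without reads in GMP KO, for which only a lower bound can be given. Akr1c18, a progesterone-metabolising reductase, had 1582, 1858 and 1996 CPM in GATA2-GMP KO, at least 49460-fold higher. Serpinb2, plasminogen activator inhibitor 2, had 917.8, 788.9 and 1460 CPM, at least 28400-fold higher, and the macrophage elastase Mmp12 had 561.6, 190.0 and 651.2 CPM, at least 12720-fold higher. The bounds were at least 4780-fold for the cadherin Cdh17, 4331-fold for the complement receptor C3ar1, 1886-fold for Ceacam10, 978.8-fold for the mast cell tryptase Tpsb2, 948.3-fold for the carbonic anhydrase Car4 and 907.1-fold for the peptide hormone Adm2. Gp49a, a relative of the inhibitory receptor Lilrb4, rose by 12.49 (SE 0.33) to 1243, 1193 and 1798 CPM. None of the genes given as bounds had more than 3 counts over the GMP WT libraries, and Akr1c18 had 773.1 to 1065 CPM in GATA2-GMP WT. These intervals and bounds cover counting error only.

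The sensors of the unfolded protein response did not move as one. Of 11 genes tested, 3 rose and 4 fell (2 and 6 with total counts, 5 and 3 after the GC and length offset), beside 38.6 and 40.0% of all genes tested. Ern1, which encodes IRE1, went from 247.0, 204.1 and 200 CPM to 11.38, 11.07 and 8.49 CPM, a change of -4.38 (SE 0.18, adjusted p = 2.21e-07), beside -5.27 in WT. Atf6b fell by 3.83 and Eif2ak3 fell by 0.99. The change of Atf6b ran from -4.49 to -1.76 over all settings. Atf6 had 79.00, 93.29 and 86.81 CPM in GMP KO and 77.30, 83.20 and 40.26 CPM in GATA2-GMP KO, groups that overlapped (change -0.36, adjusted p = 0.209, and -1.01, adjusted p = 0.0117, with total counts).

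Of 31 ER chaperones and folding enzymes tested, 14 rose and 13 fell, with a median of -0.01 (10 and 16 with total counts). All genes tested divided much the same way, with 38.6% rising, 40.0% falling and a median of -0.05. BiP (gene Hspa5), the main chaperone of the ER lumen, had 1736, 1323 and 1616 CPM in GMP KO and 4673, 4720 and 3761 CPM in GATA2-GMP KO. Its change was 1.5 (SE 0.19, adjusted p = 7.40e-05), and ran from 0.83 to 1.57 over all settings. In WT it had 2646, 1822 and 2723 CPM in GMP and 2056, 2475 and 2637 CPM in GATA2-GMP, a change of 0.00 (SE 0.23, adjusted p = 0.991). The difference between the genotypes was 1.5 (SE 0.29, adjusted p = 0.0609, range over settings, with glmTreat among them, 1.85e-05 to 1). Hspa5 thus lay below WT in every GMP KO library and above WT in every GATA2-GMP KO library.

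Other chaperones moved in both directions. Hsp90b1 (GRP94) rose by 1.88 in KO and 1.60 in WT, the disulfide isomerases Pdia4 and Pdia6 by 2.51 and 1.68 in KO, and the lectin chaperone Canx by 1.21. Pdia3, the isomerase that acts with calnexin, went from 698.3, 621.9 and 558.4 CPM to 119.2, 92.36 and 94.26 CPM, a change of -2.61 (SE 0.17). Hyou1, the nucleotide exchange factor of BiP, fell by 2.13. Among the BiP cochaperones, Dnajb9 fell by 0.80 and Dnajc3 by 0.96. Dnajb11 had 86.96, 70.33 and 74.18 CPM in GMP KO and 56.47, 57.41 and 59.64 CPM in GATA2-GMP KO, a change of -0.41 (adjusted p = 0.0192, and 0.0950 without GMP KO 1), while it rose by 0.71 in WT (difference -1.11, adjusted p = 0.0622). Pdia5, chosen after its values were seen, fell by 2.97 in KO and by 1.27 in WT (difference -1.70, adjusted p = 0.0609).

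The promoter of Hspa5 (chr2:34771840-34772089, plus strand, GRCm38.p6) is shown because it holds the ER stress response element, searched on both strands as CCAAT, then 9 bases of any kind, then CCACG, to which ATF6 and XBP1 are known to bind with NF-Y. Capitals mark the match, which begins 65 bases before the start site.
Hspa5: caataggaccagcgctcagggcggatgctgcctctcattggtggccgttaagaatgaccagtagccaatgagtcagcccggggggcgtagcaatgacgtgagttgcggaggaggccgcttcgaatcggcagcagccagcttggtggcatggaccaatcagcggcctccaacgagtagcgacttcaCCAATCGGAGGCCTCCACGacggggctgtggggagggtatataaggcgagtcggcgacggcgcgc
The element stood in 8 of the 27 chaperone promoters in the table (Calr, Canx, Creld2, Dnajc3, Ero1lb, Hsp90b1, Hspa5 and Pdia6), in 0.161% of the promoters of genes tested and in 0.130% of all promoters. Of these 8, Canx, Hsp90b1, Hspa5 and Pdia6 had KO changes of 1.21 to 1.88 and Dnajc3, Creld2 and Ero1lb changes of -0.96, -1.12 and -0.74. Calr, the soluble partner of calnexin, had a change of 0.42 (adjusted p = 0.0433) that did not pass without GMP KO 1, 2 or 3 or GATA2-GMP KO 1 or 2 and was -0.25 with total counts.

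Genes that bring proteins into the ER and attach sugars moved in both directions: 24 of 38 rose and 10 fell, with a median of 0.89. With total counts 18 rose and 11 fell, with a median of 0.19. The signal peptidase subunits Spcs1, Spcs2 and Spcs3 rose by 2.26, 1.51 and 1.80. The oligosaccharyltransferase subunits Rpn1 and Ddost fell by 1.16 and 1.94. Ddost had 260.0, 248.7 and 240.5 CPM in GMP KO and 66.45, 76.16 and 51.75 CPM in GATA2-GMP KO, beside a WT change of -0.86 (difference -1.08, adjusted p = 0.106). Among genes of ER-associated degradation 10 of 27 rose and 11 fell (6 and 16 with total counts), beside 38.6 and 40.0% of all genes tested. Herpud1, which recruits the degradation complex, rose by 2.86 from 52.63, 56.79 and 63.25 CPM to 400.5, 426.6 and 414.6 CPM, Derl2 of the retrotranslocation channel rose by 2.28, and the ubiquitin ligase Syvn1 fell by 2.21. The change of Syvn1 ran from -2.87 to -0.848 over all settings. Of 38 genes of ER-Golgi vesicles, 23 rose and 10 fell (14 and 15 with total counts), with Sec23a of the COPII coat up by 1.97, Sar1b up by 2.33 and the cargo receptor Lman1 down, at -1.42. Of 10 substrates of IRE1-dependent decay tested, 5 rose and 4 fell, and Bloc1s1, the best known of them, had 2.89, 3.88 and 3.14 CPM in GMP KO and 15.63, 17.66 and 25.69 CPM in GATA2-GMP KO (change 2.56).

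Genes of the PERK and ATF4 arm mostly rose: of 34 genes tested, 24 rose and 4 fell, with a median of 1.27 (17 and 8 with total counts, 28 and 2 after the offset). CHOP (gene Ddit3) had 9.08, 9.84 and 10.57 CPM in GMP KO and 272.8, 252.0 and 355.6 CPM in GATA2-GMP KO, a change of 4.91 (SE 0.19, adjusted p = 1.88e-07). The WT change was 3.28, with a mean of 96.86 CPM in GATA2-GMP WT (difference 1.63, adjusted p = 0.121). Asns, asparagine synthetase, went from 45.95, 29.93 and 28.40 CPM to 913.6, 943.8 and 1230 CPM (change 4.89), Trib3, a feedback inhibitor, rose by 6.71, and Mthfd2, of mitochondrial folate metabolism, by 3.99. Atf4 itself rose by 0.92 (adjusted p = 0.000574), and by 0.23 (adjusted p = 0.135) with total counts. The summed level of the list was 2413 to 2667 CPM in GMP KO and 7572 to 8012 CPM in GATA2-GMP KO, beside 3736 to 5440 CPM in GATA2-GMP WT. In the test of the KO change minus the WT change, 10 of the 34 had a positive difference at an unadjusted p below 0.05. A negative one was found for 1, and none passed the adjusted threshold. Among all genes tested these shares were 5.96 and 8.95%. Other lists leaned lower: 8 of 25 genes of cholesterol synthesis and 8 of 38 of translocation and N-glycosylation, with none higher. Of 31 ER chaperones 7 were lower and 2 higher, and of 21 eosinophil receptors and enzymes 7 and 2. With total counts the lower genes in these lists were 4, 3, 4 and 7. Interferon response genes leaned higher, with 6 of 26 and none lower. No member of these lists passed the adjusted threshold in the main fit.

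**Figure D3:**
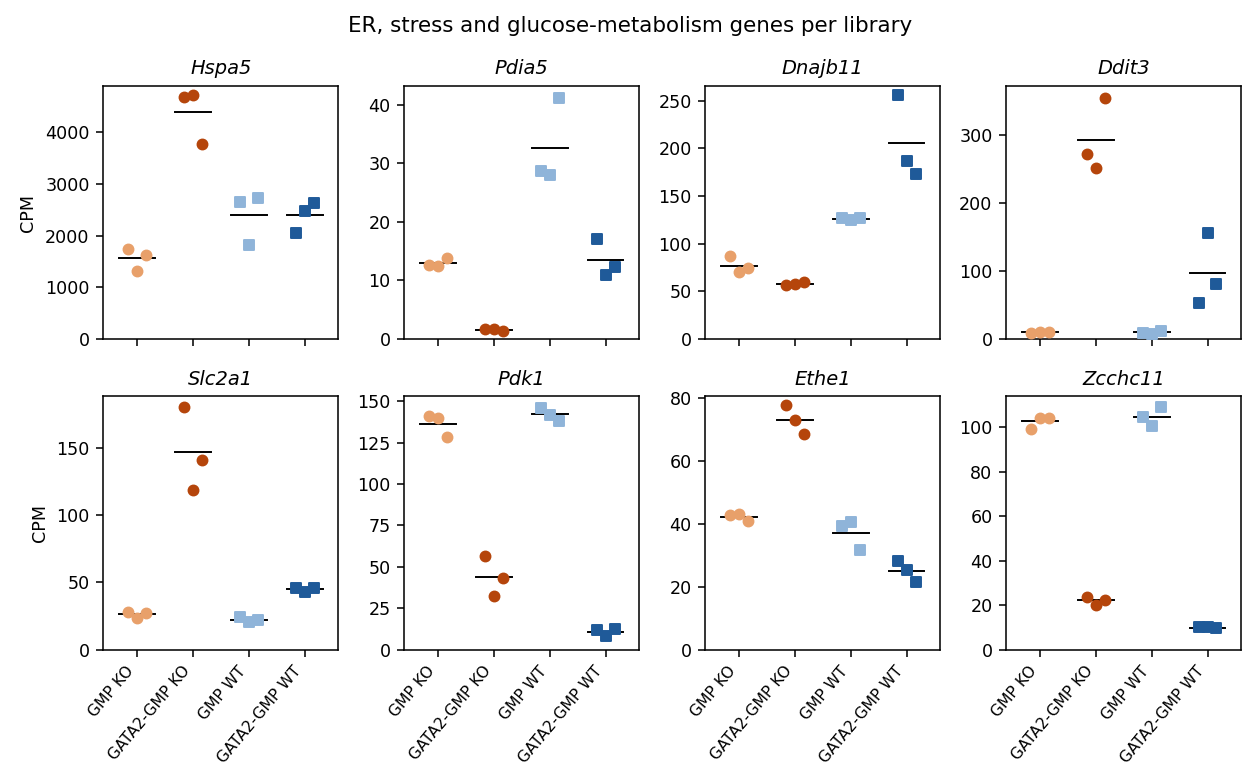
Levels of 8 genes in each library, in CPM on linear axes from 0 that differ between panels; circles are KO, squares are WT and the black line is the mean of 3 libraries. Hspa5 goes from 1323 to 1736 CPM in GMP KO to 3761 to 4720 CPM in GATA2-GMP KO, while its levels at the WT stages overlap. Slc2a1, Pdk1, Ethe1 and Zcchc11 are higher in GATA2-GMP KO than in GATA2-GMP WT.

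Cytokine signalling genes changed with the stage. Of 18 genes of STAT5 feedback and survival, 11 rose and 4 fell (9 and 7 with total counts). Cish, a STAT5 target that limits cytokine signals, went from 1.39, 1.95 and 2.06 CPM to 201.7, 204.5 and 213.0 CPM, a change of 6.87 (SE 0.20), and Socs2 rose by 6.60. The survival factor Bcl2l1 rose by 2.38 and Bcl2 fell by 1.78. Of 17 cytokines and chemokines tested, 15 rose and 2 fell. Csf2, without reads in GMP KO, could only be called higher. Ccl6 had 6.79, 6.51 and 7.08 CPM in GMP KO and 7188, 7015 and 12910 CPM in GATA2-GMP KO (change 10.39), and Ccl9 rose by 2.87. Of 25 genes of apoptosis and p53 tested, 15 rose and 6 fell, beside 38.6 and 40.0% of all genes tested.

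Of 36 replication and mitosis genes, 14 rose, 10 fell and 12 did not pass, with a median of 0.09 (9 and 20 with total counts). Among all genes tested, 38.6% rose and 40.0% fell. Rrm2, the ribonucleotide reductase subunit, rose by 2.91, and Cdk1 and Ccnb1, which drive entry into mitosis, by 2.09 and 2.89. Mcm2 of the replicative helicase fell by 1.79. Mki67 had 549.3, 694.5 and 611.8 CPM in GMP KO and 619.0, 608.3 and 340.2 CPM in GATA2-GMP KO, groups that overlapped (change -0.24, adjusted p = 0.376), and its sign turned with the processing, at -0.89 with total counts and 0.49 after the GC and length offset.

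Most genes of lipid metabolism and lysosomes rose. Of 25 genes of the cholesterol list tested, 18 rose and 4 fell, with a median of 1.90 (1.21 with total counts). Sqle, which encodes squalene epoxidase, went from 27.98, 25.33 and 24.37 CPM to 150.8, 147.6 and 120 CPM (change 2.44) and Fdps rose by 3.54, while the regulator Srebf2 fell by 2.61. The change of Srebf2 ran from -3.27 to -0.833 over all settings. Of 25 lysosomal genes, 17 rose and 5 fell, with cathepsin D (Ctsd) up by 3.72 to 3664, 3586 and 3768 CPM, Ctsb up by 1.63 and Ctsh up by 4.07. Lamp1, of the lysosomal membrane, had 87.21, 113.2 and 102.2 CPM in GMP KO and 61.37, 59.65 and 50.62 CPM in GATA2-GMP KO, a change of -0.81, beside 0.42 in WT (difference -1.24, adjusted p = 0.0770). Of 26 interferon response genes, 8 rose, 6 fell and 12 did not pass (5 rose and 11 fell with total counts). Of all genes tested, 38.6% rose and 40.0% fell.

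Of glycolysis and hypoxia genes, 14 of 24 rose and 7 fell in KO, with a median of 1.31 (0.62 with total counts), and in WT 14 rose and 8 fell, with a median of 1. Aldoa, the aldolase, went from 573.8, 541.0 and 521.5 CPM to 5688, 5147 and 6376 CPM in KO (change 3.40), Ldha rose by 2.48, Pkm by 1.63, Hk2 by 1.51 and the glucose transporter Slc2a3 by 5.57. Slc2a1, the basal glucose transporter, had 28.23, 23.60 and 27.32 CPM in GMP KO and 180.7, 118.9 and 141.0 CPM in GATA2-GMP KO, a change of 2.49 (SE 0.19). GATA2-GMP WT held 45.88, 42.93 and 45.81 CPM of Slc2a1, and the difference in the stage change was 1.47 (SE 0.23, adjusted p = 0.0321). Bnip3, a mitochondrial hypoxia target chosen after its values were seen, went from 4.50, 5.24 and 5.11 CPM to 388.9, 176.2 and 760.5 CPM in KO and to 51.45, 75.12 and 42.95 CPM in WT (difference 2.99, adjusted p = 0.0622). Pdk1, the kinase that keeps pyruvate out of the citric acid cycle, fell less in KO than in WT: by 1.62 against 3.72, from like levels in GMP, with a difference of 2.10 (SE 0.28, adjusted p = 0.0277). In the list, 12 of 24 genes had a positive difference at an unadjusted p below 0.05 and none a negative one, beside 5.96 and 8.95% of all genes tested. For a gene that fell, such as Pdk1, a positive difference is a smaller fall. The adjusted threshold was passed by 2, Slc2a1 and Pdk1, on the higher side, which 0.0312% of all genes passed. With the GMP libraries paired by replicate number, as described with the counts over all genes, neither passed (adjusted p = 0.119 and 0.0814). The summed level was 3873 to 4202 CPM in GMP KO and 3666 to 3969 CPM in GMP WT, and 14620 to 17190 CPM in GATA2-GMP KO against 8381 to 11120 CPM in GATA2-GMP WT. Gapdh, Eno1, Pgam1 and Pgk1 have near-identical copies in the genome, and reads with more than 1 alignment were not counted, so their levels are uncertain.

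Over all genes, the stage change in KO mostly had the direction it had in WT. Among 12134 genes tested in both, 9547 were called in KO and 8559 in WT. The 7980 genes called in the same direction in both were 83.6% of the KO calls and 93.2% of the WT calls. In WT 27.1% of genes tested rose and 29.1% fell by more than 2-fold. Of genes past 2-fold, 6157 were shared in direction, 85.8% of those in KO and 90.5% of those in WT. Across genes, which are not independent and share the kits and culture, the log2 fold changes had a Pearson r of 0.956, a Spearman rho of 0.956 and a slope of KO on WT of 0.940. Among the shared genes past 2-fold, 48.1% changed less in KO than in WT. Only 3 genes passed 2-fold in opposite directions: Sncaip (-2.12 in KO, 3.40 in WT), Als2cl (1.03 and -1.45) and Hif3a (2.21 and -2.65). Sncaip was among the 11 genes that passed the test of the difference between genotypes, and Als2cl and Hif3a were not.

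**Figure D4:**
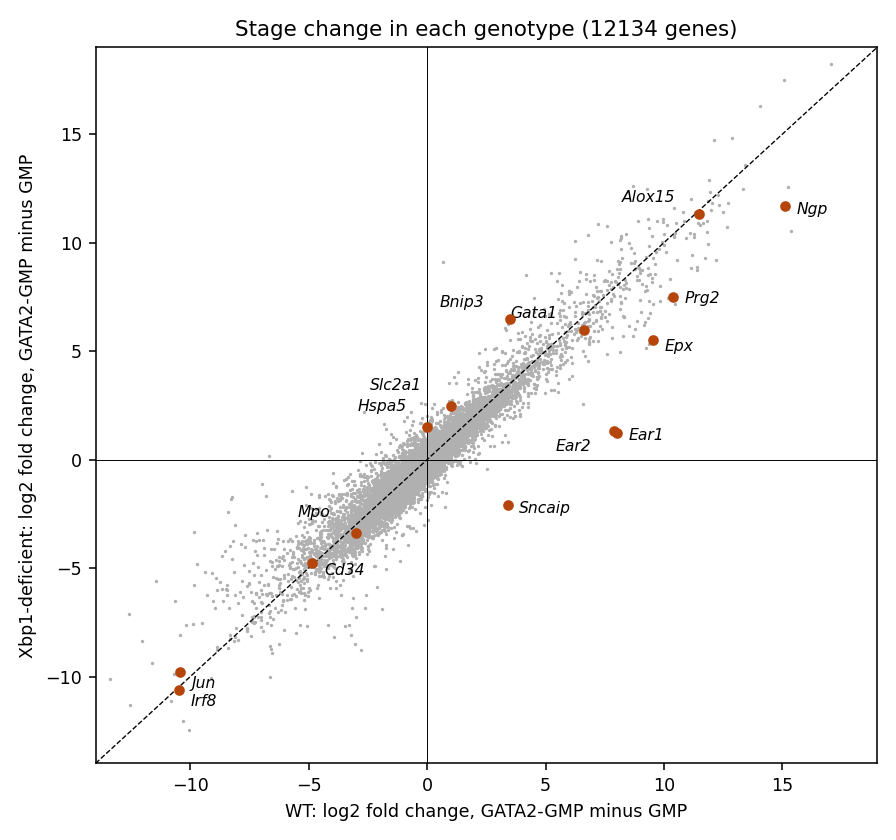
Log2 fold change, GATA2-GMP minus GMP, in WT (horizontal axis) and in Xbp1-deficient cells (vertical axis) for 12134 genes tested in both; the dashed line marks equal change, orange points are named genes, and genes without reads in a group are drawn at fitted values. Most genes lie along the line (r = 0.956), while Ear1, Ear2, Epx, Prg2 and Sncaip lie below it and Hspa5, Slc2a1 and Bnip3 above it.

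The stage change differed between genotypes in 11 genes. The KO change minus the WT change was positive (higher) in 4 (0.0312%) and negative (lower) in 7 (0.0547%). At an unadjusted p below 0.05 there were 1909 genes (14.9%), 763 higher and 1146 lower. Besides Slc2a1 and Pdk1, the 4 higher were Ethe1, a mitochondrial persulfide dioxygenase, and Zcchc11, a terminal uridylyltransferase that acts on small RNAs. For Pdk1 and Zcchc11 the positive difference is a smaller fall. Zcchc11 had KO changes of -2.89 to -1.84 over all settings. Ethe1 had 77.71, 72.83 and 68.50 CPM in GATA2-GMP KO against 28.01, 25.17 and 21.62 CPM in GATA2-GMP WT, and Zcchc11 had 23.68, 20.22 and 22.31 CPM against 10.21, 10.04 and 9.50 CPM. Both genes were picked by the test on these same libraries, so the gap between their GATA2-GMP groups is not separate support. The 7 lower were Ear1, Ear2, Sncaip, Camkk1, Rnf144b, Tusc1 and Sac3d1. Sncaip, which encodes a synuclein-binding protein, had 0.53, 0.51 and 0.30 CPM in GATA2-GMP KO against 21.90, 8.41 and 12.59 CPM in GATA2-GMP WT, from 1.72 to 2.24 CPM in GMP KO. Rnf144b, an E3 ubiquitin ligase, stayed at 20.07 to 25.26 CPM in all 6 KO libraries and rose in WT to 79.07, 40.86 and 60.26 CPM. In GMP, libraries of the same replicate number deviated together across the genotypes, with correlations of 0.362, 0.346 and 0.240, while in GATA2-GMP they did not (-0.205, -0.414 and -0.588). With a replicate block for the GMP libraries alone, an alternative chosen after seeing the data, 1 gene was called, Sncaip (-5.57, adjusted p = 0.0415), and the other 10 had adjusted p-values from 0.0814 to 0.148. With a replicate block for all 12 libraries 8 genes were called, 7 of them among the 11, and Zcchc11 (adjusted p = 0.0828), Rnf144b (adjusted p = 0.0656), Tusc1 and Sac3d1 (both adjusted p = 0.123) did not pass. The count also depended on single libraries: it was 1179 without GATA2-GMP WT 3, 127 without GATA2-GMP WT 2, 28 without GATA2-GMP KO 3, 25 without GATA2-GMP KO 2 and 1 or 2 without any of the 6 GMP libraries. Without GATA2-GMP KO 1 it was 0, with 1687 genes at an unadjusted p below 0.05 in edgeR, and DESeq2 on all libraries called 794. Without any one GMP library only Sncaip of the 11 passed. Without GATA2-GMP WT 3 the difference passed for Hspa5 (1.57, adjusted p = 0.00897), Pdia5 (-1.75, adjusted p = 0.0101), Dnajb11 (-1.22, adjusted p = 0.00588), Il5ra (-1.81, adjusted p = 0.0266), Siglec5 (-1.97, adjusted p = 0.00509), Bnip3 (2.82, adjusted p = 0.0186), Lamp1 (-1.31, adjusted p = 0.0135) and Ddost (-1.12, adjusted p = 0.0287). For Ddit3 it passed without GATA2-GMP WT 2 (2.15, adjusted p = 0.0233). In the glycolysis list 10 of 24 genes passed on the higher side without GATA2-GMP WT 3, and 8 of the 34 of the PERK and ATF4 list. In that setting 565 of all 13059 genes tested passed on the higher side.

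The base composition of transcripts moved with stage. Among 11805 genes with a known transcript (94.9% of those tested), the median log2 fold change in KO went from 0.64 to -2.09 between the first and the last of 10 equal groups of genes ordered by GC content. In the group of lowest GC content 55.4% rose and 21.5% fell, and in that of highest GC content 13.5% rose and 73.8% fell. By transcript length the median went from 1.42 in the group of the shortest transcripts to -0.73 in that of the longest. WT gave nearly the same curves, with medians of 0.51 and -1.82 at the ends of the GC range, and the median difference between genotypes ran only from 0.11 to -0.23. With an offset for both properties, 8986 genes were called in KO, and 7806 of the 9777 calls made without it were among them. The rises of the eosinophil granule, later neutrophil granule and mast cell lists had medians of 5.98, 5.83 and 5.68 after the offset.

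**Figure D5:**
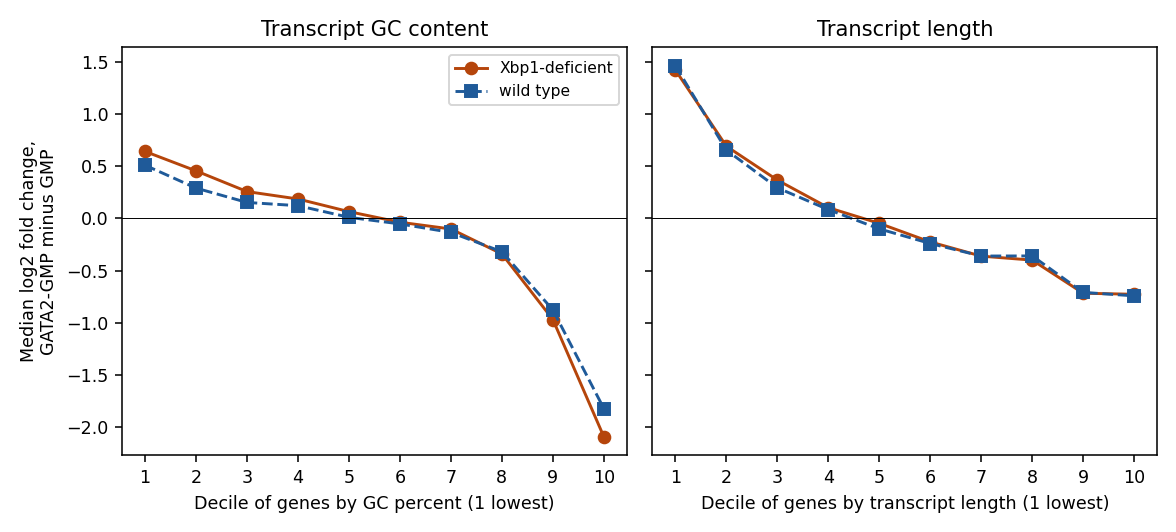
Median log2 fold change, GATA2-GMP minus GMP, of genes in 10 groups of equal size by GC content of the transcript (left) and by transcript length (right), in Xbp1-deficient (circles) and WT (squares) cells. In KO the medians go from 0.64 to -2.09 with rising GC content and from 1.42 to -0.73 with rising length, and WT follows the same course.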

How the data were processed

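Messenger RNA was sequenced in 12 libraries, 3 each of GMP and GATA2-GMP from WT and KO mice. The values are raw counts of reads per gene, as the authors deposited them, 1 table per library. Per the submitters' processing notes, STAR 2.3.0, SAMtools 0.1.14, HTSeq and DESeq were used with the mouse build mm9. Strandedness of the counting is not given in the sources used here, so overlapping antisense genes cannot be told apart. The 5 counter rows of each table, which held 55.8 to 66.5% of records, were dropped, and reads with more than 1 alignment stand there. Of 27 gene names turned into dates for GMP, 23 were restored and 4 left out, which gave 23362 genes. Samples were grouped by their titles.

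Genes were filtered with filterByExpr, scaled by TMM and tested with edgeR 4.0.16 (quasi-likelihood, robust) in R 4.3.3, and p-values were adjusted over all genes tested by the Benjamini-Hochberg method at 0.05. Every adjusted p in the report is of this kind unless DESeq2 1.42.0 is named, and SE is the log2 fold change divided by the root of F. Each stage comparison used the 6 libraries of its genotype, and the difference between genotypes was an interaction term over all 12. Replicate numbers were checked for pairing by the correlation of deviations from group means: they paired the GMP libraries across genotypes (0.240 to 0.362) but neither the GATA2-GMP libraries (-0.588 to -0.205) nor the stages. A group without reads was set to 3 counts in all, and groups of 1 to 3 counts got a 95% counting interval.

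Genes were named as targets, as the 12 largest rises and falls with at least 20 CPM and libraries that did not overlap, as the 8 largest interaction differences in each direction by the same minimum, as anchors of 29 lists or as the 4 most abundant tested members of each list. Il1rl1, Il3ra, Gfi1b, Sfpi1, Emr1, Lyz2, Pdia5, Creld2, Ero1lb, Slc2a3, Bnip3, Als2cl, Hif3a, Camkk1, Sncaip, Tusc1 and Sac3d1 fall outside this rule and were chosen after their values were seen. The comparison and the lists were chosen with earlier results of these data known. Gene coordinates are from GENCODE vM1 (mm9), which matched 21046 genes.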

Additional observations from a re-analysis of the deposited data

Results flagged for a closer look

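For 11 genes the stage change in KO minus the stage change in WT passed an adjusted p of 0.05 in the edgeR interaction test, and 1 of them, Sncaip, with the GMP libraries paired by replicate number. Values are on the log2 scale, and each of the 4 groups had 3 libraries. The difference was -5.51 for Sncaip (adjusted p = 0.00733), -6.75 for Ear1 (adjusted p = 0.0277) and -6.58 for Ear2 (adjusted p = 0.0321). It was 2.10 for Pdk1 (adjusted p = 0.0277), 1.18 for Zcchc11 (adjusted p = 0.0311), 1.37 for Ethe1 (adjusted p = 0.0321) and 1.47 for Slc2a1 (adjusted p = 0.0321). For these genes the levels by library stand in the report.

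Camkk1, a kinase that activates CaM kinases, differed by -2.98 (adjusted p = 0.0311). It had 5.25, 3.31 and 2.69 CPM in GMP KO and 2.68, 3.01 and 2.63 CPM in GATA2-GMP KO, while WT went from 3.20, 2.87 and 2.60 CPM to 23.98, 12.74 and 13.46 CPM. Rnf144b differed by -2.24 (adjusted p = 0.0311). Tusc1 differed by -2.13 (adjusted p = 0.0331), with a change of -2.21 in KO, which was -0.22 (adjusted p = 0.410) after the GC and length offset, and -0.07 in WT. Sac3d1, which takes part in centrosome and spindle function, differed by -1.76 (adjusted p = 0.0454), with a change of -1.72 in KO and 0.04 in WT.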

How the results depend on the processing

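The count of genes called between the KO stages, 9777, stayed between 8986 and 11220 under the other scalings, filters and tools, and between 9026 (without GMP KO 2) and 10669 (without GATA2-GMP KO 3) with 1 library left out. A test against a fold of 2 (glmTreat) called 6058 genes in KO and 5237 in WT, where the main count was 8638 and leaving out 1 library gave 7621 to 9826. The count of 11 genes that differed between genotypes was 17 with RLE size factors, 40 without the low-count filter, 18 with a 1 CPM filter, 794 with DESeq2, 1 with glmTreat and 233 with the GC and length offset, which was chosen after seeing the data. With 1 library left out it ran from 0 to 1179. Between stages, same-numbered deviations correlated at 0.0356, -0.0559 and -0.0442 in KO and at 0.0330, 0.0312 and 0.0813 in WT, and not every library correlated best with its own number. With the replicate number as a block, 9515 (KO stages), 8406 (WT stages) and 8 (difference) genes were called, and 1 (difference) with the block in GMP alone, also chosen after seeing the data.

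Each named gene was refitted under each other setting, and a result here is 1 gene under 1 setting. Of these results between KO stages, 14 turned sign, 51 lost and 4 gained the call, and 2200 did neither. The lost calls include those under glmTreat, which asks whether a change passed 2-fold, so small changes lose the call there. A gene can enter these counts several times. Siglec5 was -0.046 with upper-quartile scaling, -0.59 with total counts, -0.019 after the offset, and -0.11 to 0.29 with 1 library left out (below 0 without GMP KO 3 or GATA2-GMP KO 3), and Calr was -0.25 with total counts. After the offset Ear1 was -0.94, Ear2 -0.82, Ms4a3 -0.70, Atf6 0.25, Mki67 0.49, Rnf144b 0.24, Camkk1 0.21 and Sac3d1 0.46. The cause was not tested. Total counts shifted all genes by a median of -0.835 in WT, where the share of calls on the higher side went from 48.3 to 26.8%, and upper-quartile scaling shifted them by -0.148 in KO and -0.184 in WT. One CPM was 11.2 to 43.5 reads in KO libraries, so genes under 1 CPM rest on few reads.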
